A study of Mus musculus with 4 samples.

Results

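The lysosomal cathepsins described here are 10 genes, Ctsa, Ctsb, Ctsc, Ctsd, Ctsh, Ctsk, Ctsl, Ctso, Ctss and Ctsz, out of 22180 genes with an array row of their own. The set was proposed with results of these data known, and 13 further cathepsins with a row are described after it. Each of the 10 was read through its only row with a single gene symbol, and all 10 were among the 17841 genes bright enough to be tested. RNA came from cultures of calvarial bone cells of newborn mice, kept for 21 days in osteogenic medium with ascorbate and glycerol phosphate, and each culture was read on 1 array. One group carried the genotype Runx3f/f/Col1a1-cre, in which floxed Runx3 alleles meet a Cre recombinase driven by Col1a1 sequences, active in cells that make type I collagen; the other was wild type (WT). There were 2 arrays per group, numbered as biological replicates 1 and 2. Strain, the number of animals behind a culture and the cells left beside osteoblasts after isolation are not stated by the labels, so p-values measure only the spread between these cultures.

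Cathepsins are proteases that work mainly in the acid interior of lysosomes. They are made as inactive precursors, tagged with mannose 6-phosphate in the Golgi, carried to lysosomes and activated there by cleavage, and the cysteine cathepsins are held in check by cystatins. Most cells make a common set of them, whereas a few are abundant in particular cells: cathepsin S in macrophages and other antigen-presenting cells, and cathepsin K in osteoclasts, which use it to digest bone collagen. In bone, macrophages and osteoclasts share a myeloid origin, while osteoblasts arise from mesenchymal cells.

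Levels are deposited values taken to be on a log2 scale, so a difference of 1 is a 2-fold change; 4.71 served as the detection floor, a level that 90% of the rows for olfactory and vomeronasal receptors did not exceed on average. Runx3 read 7.94 and 8.06 on the arrays labelled mutant against 7.45 and 7.87 in WT (replicates 1 and 2). The labels do not say which exons were removed, and a row read along a whole gene may not register a deletion, so that group is called mutant-labelled. The collagen gene Col1a1 lay between 13.45 and 13.57 on the 4 arrays. One label field names the tissue as myoblast; the myogenic factor gene Myod1 lay between 5.45 and 6.42 and 2 of 10 myoblast markers were below the floor on every array. Mutant-labelled and WT arrays with the same number held exactly equal values in 35.8% of tested genes for replicate 1 and 50.2% for replicate 2. The labels do not say how these arose, so an equal value does not establish that a gene was unchanged. Values on the replicate 2 WT array lay a median of 0.28 above those on the replicate 1 WT array, so each difference is given within its replicate first.

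Cathepsin S was lower in the mutant-labelled cultures, and the 9 other cathepsins lay close to WT. Ctss, the cysteine protease that trims the invariant chain of MHC class II molecules, read 6.60 and 7.43 on the mutant-labelled arrays and 9.16 and 9.12 on the WT arrays (replicates 1 and 2). Both mutant-labelled arrays lay below both WT arrays, and all 4 lay above the floor. The difference was -2.56 within replicate 1 and -1.70 within replicate 2, or 5.91-fold and 3.24-fold lower. For Ctss, WT replicate 2 read 0.037 lower than WT replicate 1 and mutant-labelled replicate 2 read 0.83 higher than mutant-labelled replicate 1; the median of replicate 2 minus replicate 1 in WT over all tested genes was 0.28. Group means of Ctss were 7.01 ± 0.59 and 9.14 ± 0.026 (SD, n = 2 arrays each), 4.38-fold lower on the mutant-labelled side, a log2 difference of -2.13 (SE 0.33, 95% interval -3.10 to -1.16). With limma the unadjusted p was 0.00447 and the adjusted p 0.528, so Ctss did not pass the threshold of 0.05 after adjustment over all tested genes; nor did any other gene (0 of 17841, 0%). At an unadjusted p under 0.05 stood 707 genes (3.96%), and Ctss was the 1 cathepsin among them. By size of difference 20 tested genes lay lower than Ctss.

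Of the 10 cathepsins 1, Ctss, was at least 1.5-fold lower within both replicates, against 1.15% of all tested genes. None was at least 1.5-fold higher in both (0 of 10, against 1.47%). Arrays of the groups did not overlap for 2 cathepsins, Ctss and Ctsc, both lower, where 9.25% of all tested genes had both mutant-labelled arrays below both WT arrays. With differences of any size counted, 4 cathepsins were lower in both replicates (19.5% of all tested genes), 1 was higher in both (16.8%) and 2 were exactly equal in both (25.7%). The median log2 difference of the 10 was 0.00, as over all tested genes, and the largest difference of any other cathepsin within a replicate was 0.19 in size.

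**Figure D1:**
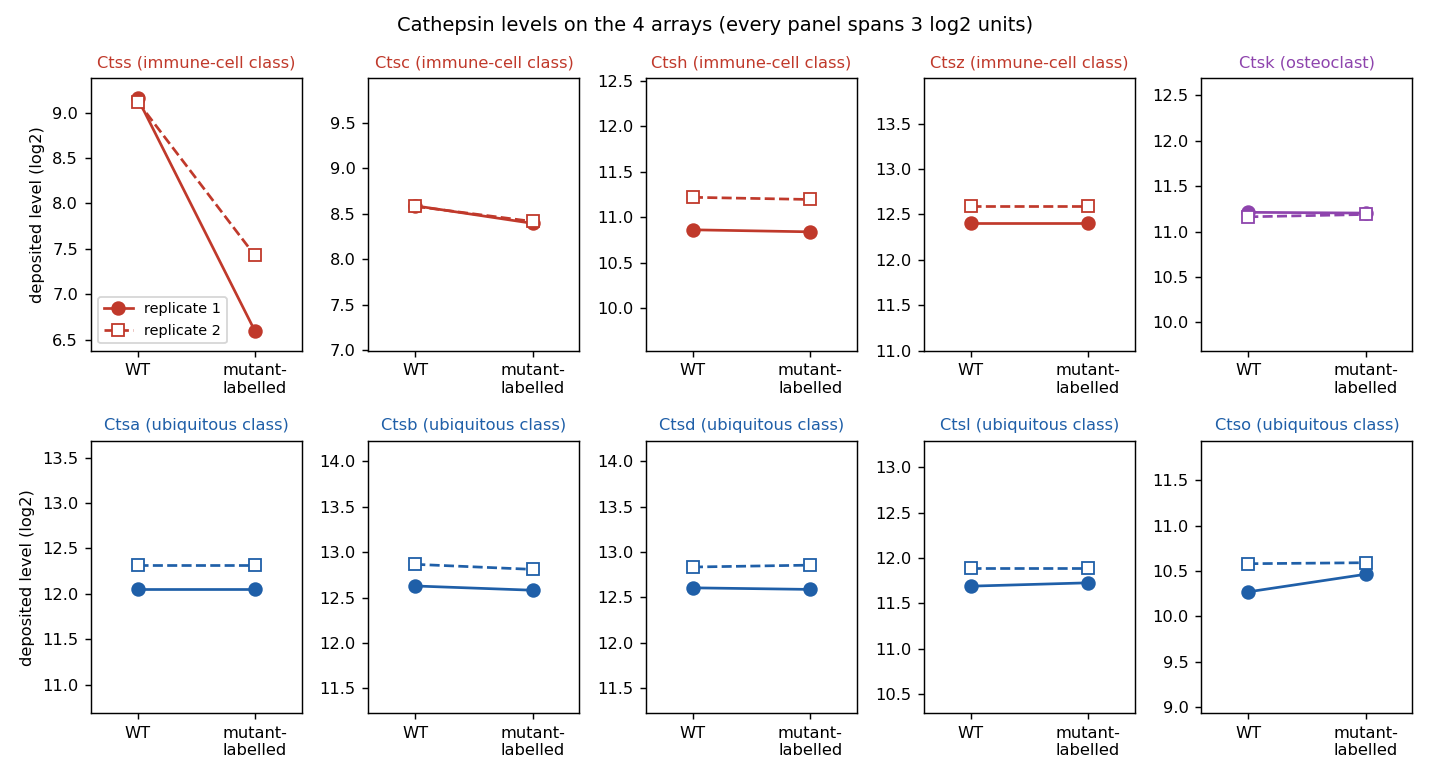
Deposited log2 levels of the 10 cathepsins (vertical axes, each spanning 3 log2 units) on the WT and mutant-labelled arrays; filled circles with solid lines are replicate 1, open squares with dashed lines replicate 2, and lines join arrays of the same number. Ctss goes from 9.16 to 6.60 and from 9.12 to 7.43, while the lines of the other genes are nearly level; panels should not be compared in height, since levels of different probe sets are not on a common scale.

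Ctss and Ctsk are neighbours on mouse chromosome 3, with no other protein-coding gene between them in the RefSeq annotation (GRCm38.p6), and offer a comparison of adjacent genes that read differently here. Ctsk read 11.20 and 11.19 on the mutant-labelled arrays against 11.21 and 11.16 in WT. The next protein-coding gene on the Ctsk side, Arnt, a partner of the dioxin and hypoxia receptors, differed by -0.11 and 0.00 within the replicates, and Golph3l, the second on the Ctss side, by 0.00 in both. Hormad1, a meiotic gene between Ctss and Golph3l, was below the floor on every array. The difference in Ctss was thus not seen in the detected genes on either side. Golph3l was exactly equal in both replicates and Arnt in replicate 2, however, which does not establish that they were unchanged. The 250 bases before the RefSeq start of Ctss, Ctsk and Ctsd are shown for this comparison, Ctsd standing for the cathepsins made by most cells. They come from GRCm38.p6 at chr3:95526536-95526785 (plus strand), chr3:95498960-95499209 (plus strand) and chr7:142387828-142388077 (minus strand), written 5′ to 3′ along each gene. Capitals mark matches to 3 short motifs: CACGTG, the palindromic core of the element bound by the lysosomal regulator TFEB; GAGGAA, the core bound by the myeloid factor PU.1; and GAAA, any 2 bases and GAAA again, the core of the interferon-stimulated response element, a motif chosen after the Ctss sequence had been seen.
Ctss: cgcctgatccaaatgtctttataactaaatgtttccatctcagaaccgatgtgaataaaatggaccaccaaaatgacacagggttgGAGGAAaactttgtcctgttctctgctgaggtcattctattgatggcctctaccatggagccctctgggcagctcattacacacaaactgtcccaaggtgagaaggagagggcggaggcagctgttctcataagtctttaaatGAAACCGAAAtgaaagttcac
Ctsk: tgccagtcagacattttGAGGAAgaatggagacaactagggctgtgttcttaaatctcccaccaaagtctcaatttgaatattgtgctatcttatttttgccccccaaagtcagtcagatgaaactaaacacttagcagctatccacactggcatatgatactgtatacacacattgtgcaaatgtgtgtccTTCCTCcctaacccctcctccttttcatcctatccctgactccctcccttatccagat
Ctsd: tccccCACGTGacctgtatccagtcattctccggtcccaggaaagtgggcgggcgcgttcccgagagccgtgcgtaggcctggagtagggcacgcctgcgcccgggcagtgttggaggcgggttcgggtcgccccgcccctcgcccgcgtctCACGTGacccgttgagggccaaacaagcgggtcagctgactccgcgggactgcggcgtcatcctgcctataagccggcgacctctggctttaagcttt

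The stretch before Ctss held GAGGAA 164 bases and the response element core 21 bases before the start, both on the gene's strand; a further GAGGAA on the opposite strand began at the start itself, beyond the printed stretch. That before Ctsk held GAGGAA 233 bases before the start on the gene's strand and 58 bases before it on the opposite strand, and that before Ctsd held CACGTG 245 and 98 bases before the start. Over windows of 300 bases (250 before and 50 after the start, both strands), 8 of the 10 cathepsins had a sequence, Ctsb and Ctsh being the others. CACGTG was in windows of 3 of these 8 (Ctsa, Ctsd and Ctsl), against 7.15% of 32851 windows of the table. GAGGAA was in windows of 3 (Ctsc, Ctsk and Ctss), against 28.3%, and the response element core in windows of 2 (Ctso and Ctss), against 3.44%. The Ctss match to that core was seen before the motif was chosen, so it was fixed in advance. The percentages count windows, whereas the cathepsins are counted as genes, which had 9 windows. The motifs share no match, although the response element core matched Ctso at 2 places that overlap each other. These letters describe the windows only. GAGGAA was in those of both Ctss and Ctsk, which read differently, and the response element core in those of both Ctss and Ctso, the latter with differences of 0.19 and 0.011.

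Markers of macrophages were lower on the same arrays as Ctss. Of 30 such markers 29 were tested, and 27 of them were lower in both replicates, against 19.5% of all tested genes. At least 1.5-fold lower in both were 23, against 1.15%. None was higher in both (0, against 16.8%), and 2, Aif1 and Cx3cr1, were exactly equal in both (25.7%). The median log2 difference of the 29 was -1.38, against 0.00 over all tested genes, with -1.52 within replicate 1 and -1.25 within replicate 2. Adgre1, which encodes F4/80, read 5.61 and 6.16 on the mutant-labelled arrays against 8.21 and 8.44 in WT; Ptprc, the pan-leukocyte gene for CD45, read 4.77 and 4.60 against 5.93 and 5.48. The markers of the list, Ptprc included, were above the floor on at least 1 array each. Added up on the linear scale, the levels of the 30 markers came to 3662 and 4286 on the mutant-labelled arrays. On the WT arrays they came to 11661 and 12689, so the ranges were apart. Probe sets are not on a common scale, and bright rows such as Lyz2 (11.78 and 11.81 in WT) weigh most in these sums. In bulk cultures fewer cells of a type and less RNA per cell cannot be told apart, and the part of macrophage content in the Ctss difference was not tested. Of 12 osteoblast markers 5, among them the matrix gene Ibsp, were at least 1.5-fold lower in both replicates, against 1.15% (median -0.29). The list was split: with any size counted, 6 were lower in both (19.5% of all tested genes). Sp7 and Postn, 2 of the 12, were higher in both (16.8%). Of 8 endothelial markers 3, Cdh5, Flt1 and Emcn, were at least 1.5-fold higher in both, against 1.47% of all tested genes (median 0.14). Emcn was below the floor on both WT arrays (3.76 and 4.42), so it was tested only through the mutant-labelled arrays. Another 3 of the 8 were exactly equal in both. Of 6 tested adipocyte markers 1, Pparg, was at least 1.5-fold lower in both, against 1.15% (median -0.30).

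Set against these markers, Ctss was among the lower ones. Of the 29 tested markers, 4 differed by at least as much as Ctss within replicate 1 and 11 within replicate 2. The mean difference of the markers was -1.52 and -1.34, so Ctss lay 1.05 log2 units below it in replicate 1 (-1.05) and 0.36 below it in replicate 2 (-0.36). The distance from that mean was therefore unequal between replicates. The mean includes Aif1 and Cx3cr1, exactly equal in both replicates, and is no measure of macrophage content. The 5 tested genes whose 4 values, each centred on the gene's mean, lay nearest to those of Ctss (Euclidean distance over 4 arrays) were Ms4a6c (0.19), Siglec1 (0.24), Folr2 (0.26), Cd36 (0.30) and P2ry6 (0.33). Siglec1 encodes the macrophage sialoadhesin, Folr2 a folate receptor, Cd36 a fatty acid and lipoprotein receptor (below the floor on both mutant-labelled arrays) and P2ry6 a nucleotide receptor. None was in the macrophage list, but that list is not complete, as the macrophage gene Siglec1 lies outside it. The mean differences of these 5 genes ran from -2.30 (Folr2) to -1.93 (P2ry6). With 4 arrays such a distance is a description of these values only.

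**Figure D2:**
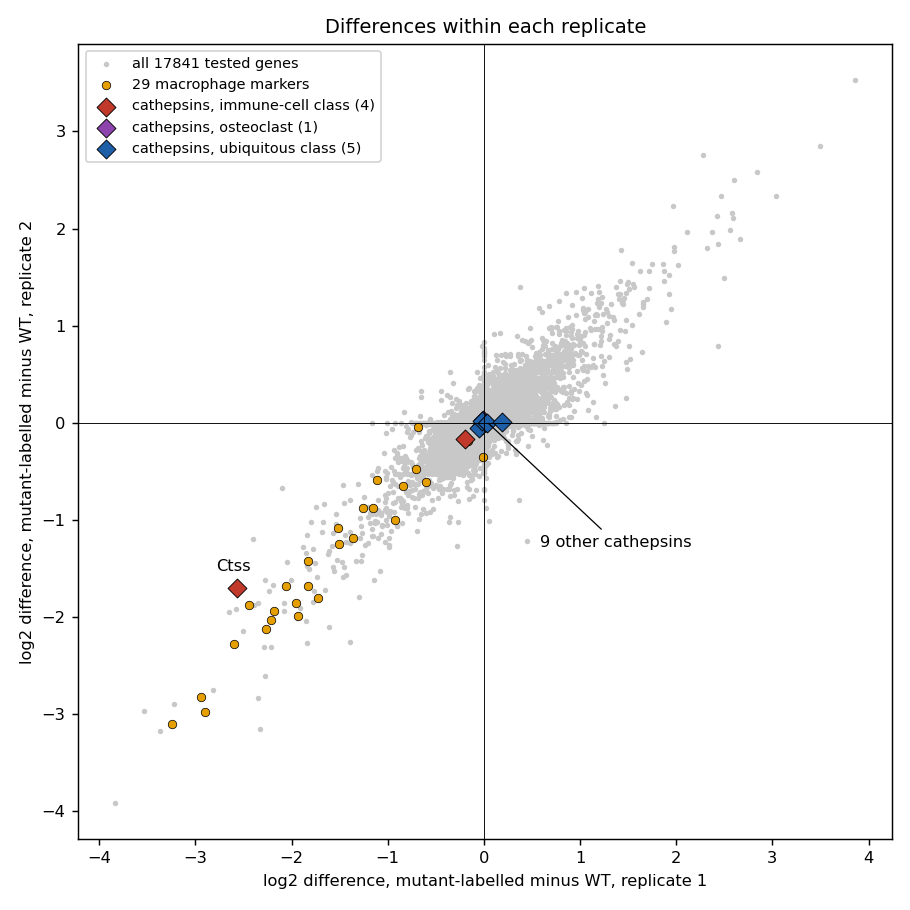
Log2 difference, mutant-labelled minus WT, within replicate 1 (horizontal axis) and within replicate 2 (vertical axis) for all 17841 tested genes (grey), 29 tested macrophage markers (orange) and the 10 cathepsins (diamonds). Ctss at -2.56 and -1.70 lies among the macrophage markers, and the 9 other cathepsins lie within 0.19 of 0 on both axes.

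The other cathepsins counted here, from general knowledge, as those of immune cells (Ctsc, Ctsh and Ctsz) did not follow Ctss in size. Ctsc, the dipeptidyl peptidase that activates the granule proteases of immune cells, read 8.39 and 8.41 on the mutant-labelled arrays against 8.59 and 8.58 in WT. The groups did not overlap, and arrays of the same group lay within 0.021 of each other, without the upward offset of replicate 2. The difference was -0.19 within replicate 1 and -0.17 within replicate 2, or 1.13-fold on average (8.40 ± 0.015 against 8.58 ± 0.0046, SD, n = 2; 95% interval -0.51 to 0.16; limma adjusted p = 1). Differences at least as low as the smaller of these within both replicates were seen in 6.45% of all tested genes. Ctsh, an aminopeptidase of lysosomes, read 10.84 and 11.19 against 10.86 and 11.22, with differences of -0.022 and -0.024. The offset between its replicates, 0.36 on the mutant-labelled and on the WT side, was many times larger than the difference. Ctsz, the carboxypeptidase also called cathepsin X, read 12.40 and 12.60 in both groups, with exactly equal values in both replicates.

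Ctsk, the collagen-degrading protease of osteoclasts, differed by -0.0081 and 0.026 within the replicates (11.20 ± 0.011 against 11.19 ± 0.035, SD, n = 2; limma 95% interval -0.33 to 0.35). The arrays of the groups overlapped, and the sign differed between replicates. Among 13 other osteoclast markers 11 were tested and 2, Calcr and Car2, were below the floor on every array; the median difference of the tested ones was -0.01. Of the 11, 1 was at least 1.5-fold lower in both replicates and 0 higher, against 1.15% and 1.47% of all tested genes. That gene was Atp6v0d2, a subunit of the osteoclast proton pump, at 5.37 and 5.90 against 6.91 and 6.84. Acp5, the tartrate-resistant acid phosphatase of osteoclasts and macrophages, read 9.19 and 9.35 on the mutant-labelled arrays against 8.91 and 9.02. The osteoclast markers thus did not share a direction, and Ctsk stood with their median. The cells that made Ctsk in these bulk cultures were not identified, so its level is no measure of osteoclast content.

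The 5 cathepsins made by most cells showed differences of 0.19 or less in size. Ctsa, the serine carboxypeptidase that protects lysosomal beta-galactosidase and neuraminidase, read 12.05 and 12.31 in both groups, exactly equal in both replicates. Ctsb, a cysteine protease with both endopeptidase and carboxypeptidase activity, read 12.58 and 12.81 against 12.63 and 12.87, with differences of -0.047 and -0.056. Its difference was alike in both replicates but small beside the offset of 0.24 between the WT arrays. Ctsd, the aspartic protease of lysosomes, read 12.59 and 12.85 against 12.60 and 12.83, with differences of -0.017 and 0.021. Ctsl, an endopeptidase of the papain family, read 11.73 and 11.89 against 11.69 and 11.89, with 0.037 in replicate 1 and an exactly equal value in replicate 2. Neither gene showed groups apart. Ctso, a less studied member of the papain family, read 10.47 and 10.59 against 10.27 and 10.58, with 0.19 in replicate 1 and 0.011 in replicate 2, so 1 replicate carried its difference.

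In the limma fit without the replicate number, the 95% intervals of 7 of the 9 cathepsins other than Ctss lay within 1.5-fold (0.58 on the log2 scale) on either side of 0. The intervals of Ctsh (-0.67 to 0.62) and Ctso (-0.39 to 0.60) reached past it. All 9 had an adjusted p of 1 in that fit, which does not show that they were alike in the groups. With the replicate number as a block, the 95% intervals were -4.62 to 0.36 for Ctss, -0.031 to -0.015 for Ctsh, -0.078 to -0.024 for Ctsb, -0.26 to -0.10 for Ctsc and -0.42 to 0.63 for Ctso. The interval of Ctss then took in 0 and those of Ctsh, Ctsb and Ctsc did not, and none of the 10 passed after adjustment. In that fit Ctsa and Ctsz, exactly equal in both replicates, had an SE of 0.0011, and Ctsh had 0.0012. The 2 within-replicate differences of Ctsh, of Ctsb and of Ctsc lay close to each other, which by itself narrows an interval. limma also shares variance between genes, so the exactly equal values, whose origin is not stated, entered that variance. How much each contributed to the intervals of Ctsh, Ctsb and Ctsc was not tested. With 2 arrays per group, the width of those intervals is no measure of better support than for Ctss.

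As a contrast of classes, the mean level of the 4 cathepsins of immune cells (Ctsc, Ctsh, Ctss and Ctsz) was set against that of the 5 made by most cells within each array. The immune class minus the other came to -2.32 and -2.18 log2 units on the mutant-labelled arrays and -1.596 and -1.72 on the WT arrays. Only the change between arrays can be read, as probe sets differ in brightness. The contrast was -0.73 within replicate 1 and -0.47 within replicate 2. With Ctss left out, an alternative chosen after the data were seen, it was -0.11 and -0.058, so most of it came from Ctss. The median difference was -0.10 in the immune class and 0.0016 in the other. The classes were set from general knowledge of where the genes are abundant, and the members had been proposed with results known, so no test is given.

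Beyond these 10, few genes of the family were detected. Of 13 other cathepsins with a row, 10 were below the floor on every array, among them Ctsg of neutrophils and mast cells and the placental genes Ctsj, Ctsm, Ctsq and Ctsr. Ctsf, a widely made papain-family protease, read 10.13 and 10.01 on the mutant-labelled arrays against 9.97 and 9.98. Ctsw, a gene of cytotoxic lymphocytes, read 5.45 and 5.65 against 5.65 and 5.65, and Ctse, an aspartic protease, was exactly equal in both replicates. Among the other markers of blood cells, 8 of 11 neutrophil, 6 of 8 lymphocyte and 3 of 7 mast cell markers were tested. None of these (0) differed by 1.5-fold or more in both replicates, where 1.15% of all tested genes were lower and 1.47% higher by that much. Of the tested ones 5 neutrophil, 5 lymphocyte and 1 mast cell markers were exactly equal in both, which does not establish that they were unchanged. Several, such as S100a9 and Cd3d, were above the floor on 2 arrays only. Of the cystatins, 16 of 19 had a row and 3 were tested. Cst3, the secreted cystatin C, read 13.01 and 13.32 against 13.00 and 13.32 on the brighter of its 2 rows, and Cstb, the cytosolic cystatin B, was exactly equal in both replicates. Cst7, the cystatin of leukocytes, read 4.93 and 6.17 against 4.96 and 6.33, with a large offset between replicates. No detected inhibitor lay far from WT.

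Genes that process, sort and surround the cathepsins also lay near WT. Legumain (Lgmn), which cleaves several cathepsin precursors, read 10.90 and 11.12 against 11.16 and 11.25, with differences of -0.26 and -0.12. It was the member of smallest unadjusted p (limma, 0.267, adjusted p = 1) among 8 tested processing enzymes and partners, whose median difference was 0.00; of these 2 were lower and 2 higher in both replicates. Dpp7, a lysosomal dipeptidyl peptidase, differed by 0.23 and 0.20. Of 24 tested lysosomal hydrolases 0 were past 1.5-fold within each replicate and the median was -0.011. Over all tested genes 1.15% were lower and 1.47% higher by that much in both, so 0 in lists this short is unremarkable. Galc, which degrades galactolipids, differed by -0.53 and -0.18 and Hexa, a hexosaminidase subunit, by 0.24 and 0.28. The 17 tested genes of the lysosomal membrane had a median of 0.00, with Scarb2, the receptor of glucocerebrosidase, at -0.21 and -0.056, and none was 1.5-fold apart in both. The 10 genes of mannose 6-phosphate tagging and sorting had a median of -0.0011 and likewise 0 past 1.5-fold. Proton pump genes had a median of -0.046 over 17 tested, and Atp6v0d2 was the 1 at least 1.5-fold lower in both. None of the genes in these 5 lists passed the adjusted threshold (limma), and at an unadjusted p under 0.05 Atp6v0d2 was the 1 that did (0.00814, adjusted p = 0.65).

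From the macrophage list described with Ctss, the lysosomal proteins Cd68, Laptm5 and Lyz2 are given here, chosen after their values were seen. Cd68, the macrosialin of macrophage lysosomes, read 9.38 and 9.52 on the mutant-labelled arrays against 10.22 and 10.18 in WT, and Laptm5, a lysosomal membrane protein of blood cells, 5.06 and 5.85 against 6.89 and 7.53. Lyz2, the macrophage lysozyme, differed by -1.73 and -1.81. For each of these the groups did not overlap. Being of that list, they are no separate evidence.

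Among 10 transcription factors of lysosomal, myeloid or osteoclast genes, 1 was at least 1.5-fold lower in both replicates and 0 higher. The shares over all tested genes were 1.15% and 1.47%, and the median difference of the 10 was -0.063. Tfec, a relative of TFEB found in macrophages, read 4.58 and 4.70 against 5.40 and 5.57, below the floor on both mutant-labelled arrays (limma unadjusted p = 0.00539, adjusted p = 0.566). Cebpb, a factor of many cell types, read 9.29 and 9.15 against 8.84 and 8.85 (limma unadjusted p = 0.0488, adjusted p = 1). Spi1, which encodes PU.1, differed by -0.69 within replicate 1 and -0.048 within replicate 2, and Irf8, an interferon regulatory factor of myeloid cells, by -0.29 and -0.44. The 2 factors with an unadjusted p under 0.05, Tfec and Cebpb, lay on opposite sides of WT. Tfec was tested only through its WT arrays, where it was higher, so its p and fold are description only.

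**Figure D3:**
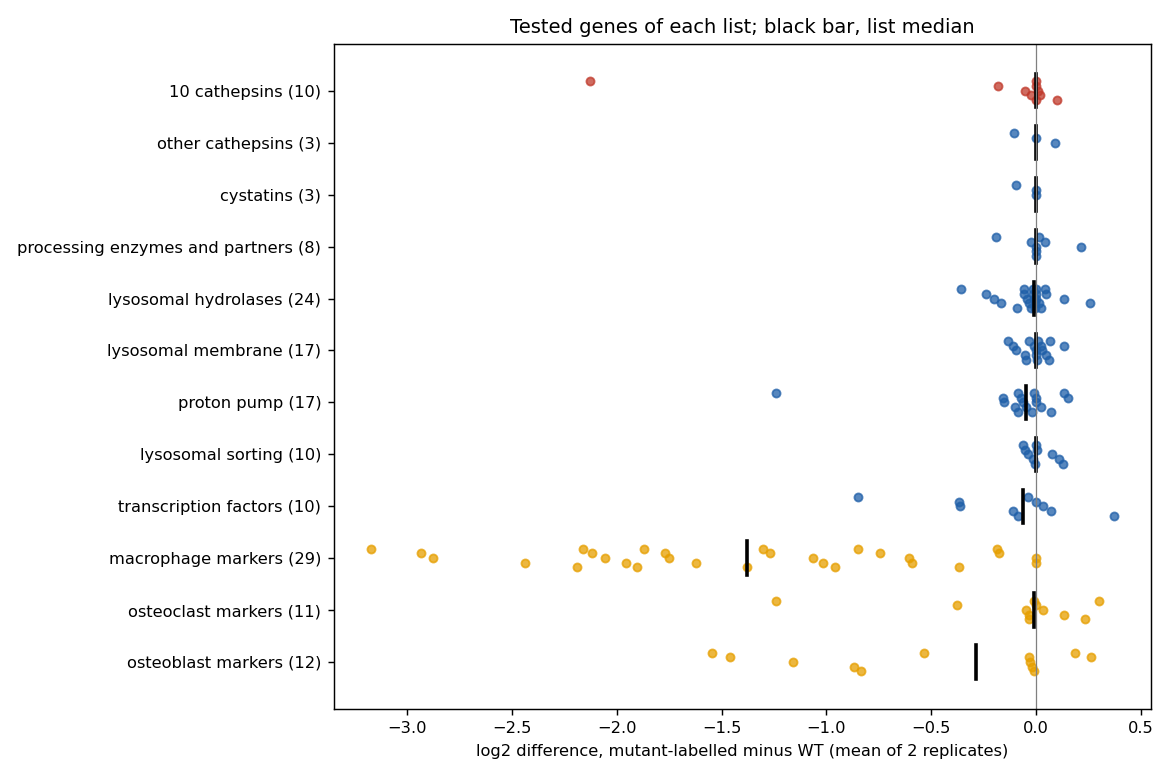
Mean log2 difference, mutant-labelled minus WT (horizontal axis), of each tested gene in 12 lists (rows, with the number of tested genes); each dot is a gene and the black bar the list median. The cathepsins cluster at 0 apart from Ctss at -2.13, the lysosomal lists lie near 0 apart from Atp6v0d2 at -1.24, and the macrophage markers spread from -3.17 to 0 with a median of -1.38.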

How the data were processed

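Values are the deposited log2 levels of 41345 array rows. Partek and RMA are the tools given by the submitters' processing notes, with no version or role; log base, centring and the joining of arrays are not stated there, so base 2 is taken from the range of 2.26 to 14.07. Rows were named through the supplied platform annotation (23521 with 1 symbol, 1814 with several, 16010 with none listed); a gene's row with the highest mean stood for it, and genes were tested when at least 2 of 4 arrays lay above the floor. Groups came from the sample titles. limma 3.58.1 (under R 4.3.3) fitted the differences (lmFit, eBayes, group as the only term, two-sided, Benjamini-Hochberg over all tested genes), after the code was tested on simulated data. Of 249 list entries 231 had a row. All members, the listed genes of smallest p and the genes nearest to Ctss were named. Members and lists were chosen with earlier results of these data known. Sequences are RefSeq's, read with Python 3.11.15. Alternatives covered the floor, normalization, rows per gene, variance trend, replicate number, classes and each array left out.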

Additional observations from a re-analysis of the deposited data

How the results depend on the processing

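Ctss kept its direction in each of 12 alternative fits, from -2.54 to -1.71, with limma adjusted p between 0.0675 and 1, and it alone among the 10 cathepsins was past the fold in both replicates with no filter, the floor at the median, quantile normalization again, median centring (added after seeing the data), the mean of rows, and the other 2 folds. The count of genes past the adjusted threshold, 0 in the report, was 49 with an intensity trend and 335 for the replicate block with quantile normalization again; Ctss was not among them (limma adjusted p = 0.108 and 0.0675). With the replicate block alone it was 0, with 2319 genes at an unadjusted p under 0.05. Ctss then had an unadjusted limma p of 0.0618 and an adjusted p of 0.424. Ctsb, Ctsc and Ctsh had unadjusted limma p of 0.0208, 0.0161 and 0.0123. Each had 2 within-replicate differences close to each other, and the exactly equal values entered the shared variance. How much each contributed was not tested. Same-numbered arrays deviated together (Pearson r = 0.92 across 17841 genes, and 0.83 across the 7076 with no equal value in either replicate), but the labels do not say what a number shares. Genes past the fold in both replicates, 469 at 1.5-fold, were 187 at 2-fold and 1139 at a ratio of 5 to 4, by construction. The class contrast of -0.60 was -0.79 with Ctsz counted as ubiquitous and -0.082 without Ctss. Median centring shifts every gene's difference by the same -0.039, which by construction turned the sign of Ctsd (-0.038), Ctsk (-0.0303) and Ctsl (-0.021). Leaving out an array brings the replicate offset into each difference (median of all tested genes -0.16 to 0.15), which alone can turn the sign of a small one; signs turned for Ctsb (-0.17 to 0.068), Ctsd (-0.13 to 0.14), Ctsh (-0.20 to 0.16), Ctsk (-0.016 to 0.034), Ctsl (-0.0796 to 0.12) and Ctso (-0.053 to 0.26). Unadjusted counts then ran from 276 to 420, against 707. With 2 arrays per group, the number of arrays limits the precision.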
